A study of Mus musculus with 4 samples.

Results

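The genes described here are Slc2a1, which encodes the glucose transporter GLUT1, and 9 enzymes of glycolysis: Hk2, Pfkl, Pfkp, Aldoa, Gapdh, Pgk1, Eno1, Pkm and Ldha. They were chosen by symbol from a table of 55421 mouse gene identifiers. The 10 symbols matched 11 identifiers because 2 Ensembl loci carry the name Aldoa. All 11 passed the filter on low values (2 or more libraries at 10 or above), as did 18547 identifiers in all.

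RNA was sequenced from YFP+ cells sorted from adult mouse brain in 4 libraries, 2 labeled WT and 2 labeled Opa1 KO. Per the study's methods, both genotypes carried a tamoxifen-inducible Cre recombinase driven by the Nestin promoter (Nestin-CreERT2) and a Rosa26 YFP reporter on a C57BL/6 background, and both received tamoxifen. The mice of both genotypes were young adults of both sexes. The Opa1 KO mice carried floxed Opa1 alleles in addition, so the WT libraries are Cre-positive transgenic controls and not untreated wild-type animals. Opa1 encodes a GTPase of the inner mitochondrial membrane that drives its fusion and shapes its cristae. The study's methods and its discussion give different intervals between tamoxifen and the sort, of about a month or of several days, so the time point of these libraries is uncertain. The text of the study places the bulk RNA-seq in the subventricular zone. The YFP label marks every cell that recombined and its progeny, so descendants of the stem cells were sorted along with them, as was any other cell type in which the Nestin promoter was active. Libraries are called here by the replicate numbers of their titles, which differ from the numbers in the table's column names: WT 1 and WT 2 are the columns numbered 2 and 4, and likewise Opa1 KO 1 and Opa1 KO 2. Neither the number of animals per library nor any pooling is stated. The p-values below therefore measure the spread between libraries, which may be technical.

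Glycolysis splits glucose into pyruvate in the cytosol and yields ATP without oxygen. GLUT1 admits glucose, hexokinase traps it as glucose-6-phosphate, phosphofructokinase commits it to the pathway, and the lower enzymes release ATP and NADH. Lactate dehydrogenase then turns pyruvate into lactate and restores NAD+. Quiescent neural stem cells and astrocytes are known for high glycolytic gene expression, whereas neuroblasts rely more on mitochondrial respiration. Several of these genes are textbook targets of the hypoxia-inducible factor HIF, which binds short sequences with the core letters ACGTG or GCGTG.

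The question was whether cells that lost the mitochondrial fusion protein carried more or less mRNA for glucose uptake and glycolysis. None of the 11 loci passed the test in either direction. Of these, 6 had a positive and 5 a negative log2 difference between Opa1 KO and WT, with a median of 0.01 against -0.01 over all genes tested. A difference smaller than 0.25 on the log2 scale was found for 9 of the 11, and for 11704 of the 18547 genes. The exceptions were Hk2, with 1.54 times the WT mean, and Slc2a1, with 1.19 times the WT mean and a wide spread between libraries of 1 genotype.

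The 3 promoter stretches below are those of Slc2a1 and Hk2, the members with the largest genotype differences, and of Ldha, the sole member with an E-box (CACGTG) in the windows searched. They are RefSeq windows in build GRCm38.p6, printed 5′ to 3′ on the gene's strand and confined to bases outside annotated exons. Capitals mark ACGTG or GCGTG on either strand, and where CACGTG occurs the forward and reverse matches overlap. The Slc2a1 stretch lies at chr4:119108495-119108710 on the plus strand, directly before the annotated gene. The Hk2 stretch lies at chr6:82774455-82774704 on the minus strand, also directly before its gene. The Ldha stretch lies at chr7:46845554-46845803 on the plus strand, inside the annotated gene but before its first RefSeq start. The matches stand 61 bases before the start in Slc2a1, whose window holds a further match in bases not printed, and 226 and 52 bases before it in Hk2.
Slc2a1: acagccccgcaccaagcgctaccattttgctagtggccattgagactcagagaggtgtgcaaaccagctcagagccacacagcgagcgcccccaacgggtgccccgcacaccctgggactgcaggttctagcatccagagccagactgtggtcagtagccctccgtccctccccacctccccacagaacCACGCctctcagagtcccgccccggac
Hk2: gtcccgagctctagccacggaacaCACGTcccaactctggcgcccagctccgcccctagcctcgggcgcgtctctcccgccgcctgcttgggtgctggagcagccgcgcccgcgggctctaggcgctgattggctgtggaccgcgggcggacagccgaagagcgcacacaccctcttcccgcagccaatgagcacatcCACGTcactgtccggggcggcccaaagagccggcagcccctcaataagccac
Ldha: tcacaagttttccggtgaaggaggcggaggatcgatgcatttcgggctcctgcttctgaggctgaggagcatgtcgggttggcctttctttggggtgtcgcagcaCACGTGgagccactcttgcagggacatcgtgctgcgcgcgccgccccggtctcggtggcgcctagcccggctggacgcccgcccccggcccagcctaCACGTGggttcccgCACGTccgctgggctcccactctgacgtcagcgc

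Within the 250 bases before the start, ACGTG or GCGTG occurred in 38.6% of the 32851 promoter windows of the mouse table and in 14 of the 16 windows that belong to the 10 members. Some windows of Eno1 and of Aldoa overlap each other, so 1 match can count in more than 1 window. Counted whether or not the other was present, ACGTG stood in 16.6% of all windows and in 7 of the 16. GCGTG, counted likewise, stood in 28.2% of all windows and in 8 of the 16. The E-box CACGTG, which contains ACGTG, was found in 6.02% of all windows and in 1 member window, that of Ldha, where it occurred 2 times. TGATGNAA, the letters of the composite element bound by ATF4, the main transcription factor of the integrated stress response, stood in 3.45% of all windows and in none of the members' windows. GGGCGG, the GC box, was present in 32.7% of all windows and in 10 of the 16. A match is a description of letters, and binding was not measured here.

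Library totals recovered from the deposited values ranged from 19985853 to 23237326 reads. Opa1 itself, the targeted gene, was counted at 3039 and 2833 normalized reads in WT and at 837 and 739 in Opa1 KO, a log2 difference of -1.90 ± 0.13 (SE). In limma its unadjusted p was 6.95e-05 and its adjusted p 0.998, so the limma test called none of the 18547 genes (0%), the deleted gene included. At an unadjusted p under 0.05, limma listed 666 genes, DESeq2 632 and edgeR 704. After adjustment DESeq2 called 64 genes (0.345%) with Opa1 at an adjusted p of 1.71e-25, whereas edgeR called none. For the glycolysis loci the counts were 0 of 11 by limma, by edgeR and by DESeq2, and none had an unadjusted p under 0.05 in these 3 tests. With 2 libraries a group, the confidence intervals below say more than these calls do.

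Marker genes of several cell types differed by genotype or by replicate number. Of the 14 stem cell and astrocyte markers (median 0.44), 12 were higher in Opa1 KO by the mean, 7 of them without overlap. Over all genes tested, 15.2% were higher without overlap and 15.7% lower. Nes (-0.27) and Sox2 (-0.02), markers of stem and progenitor cells, were not among the 12. The summed level of the list was 115459 and 132864 in WT against 155702 and 183287 in Opa1 KO. All 12 neuroblast markers were lower in Opa1 KO by the mean (median -0.35), 11 of them without overlap. Their sums were 151040 and 133671 in WT and 118494 and 98743 in Opa1 KO. Markers of pericytes (8 of 8) and oligodendrocytes (8 of 8) were higher in Opa1 KO by the mean, with medians of 1.22 and 0.95. Groups did not overlap for 7 of the pericyte and 8 of the oligodendrocyte markers. DESeq2 called 5 of the pericyte markers and 2 of the stem cell and astrocyte markers, and limma called none. No marker on any list was at 0 in all libraries. The labels call the cells neural stem cells, and the astroglial marker Gfap was counted at 2745 to 5177 and the neuroblast marker Dcx at 14067 to 23028. Defining markers of other types were present as well, with Pdgfrb at 1045 to 2126, Mbp at 2621 to 6902, Cldn5 at 232 to 597 and P2ry12 at 63.2 to 223. In sorted bulk samples, fewer cells of a type and less RNA per cell cannot be told apart. The part of these shifts in the values of the glycolysis genes was not tested.

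**Figure D1:**
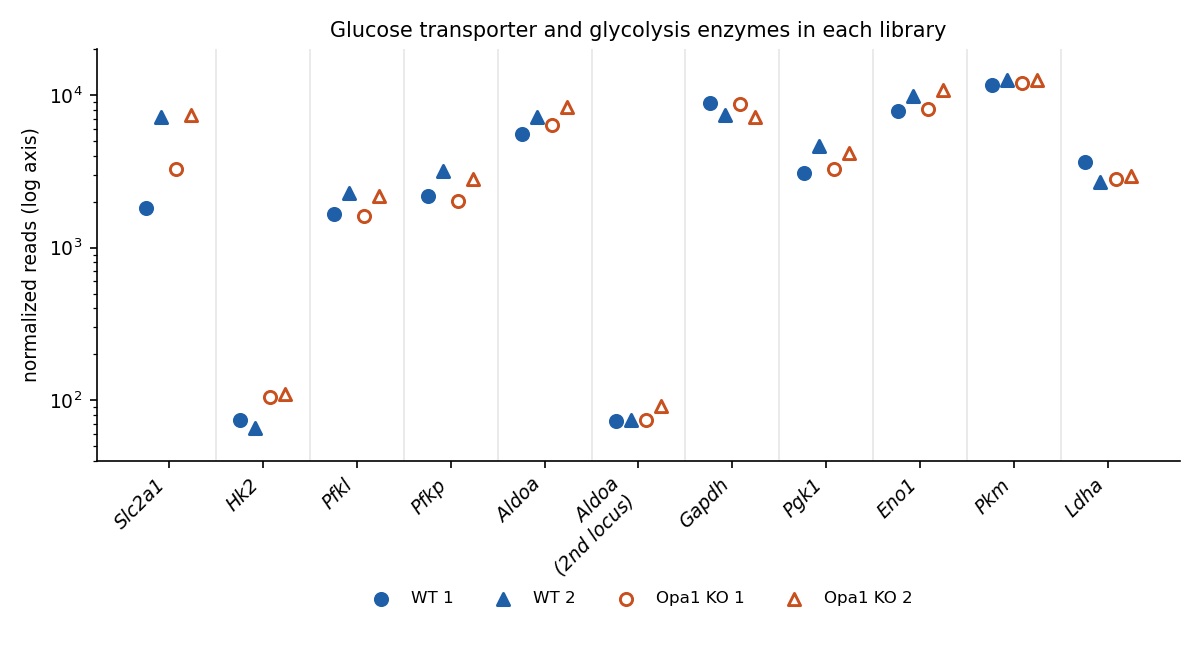
Normalized reads (log axis) of the 11 loci in each of the 4 libraries; filled symbols are WT, open symbols Opa1 KO, circles replicate 1 and triangles replicate 2. Only Hk2 shows both Opa1 KO libraries clearly above both WT libraries, and Slc2a1 spans from 1826 to 7422 with the triangles on top in both genotypes.

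Glucose uptake is the first step, and Slc2a1 was the member that varied most between libraries. Slc2a1 (ENSMUSG00000028645, chr4:119108711-119137983, plus strand, GRCm38) was counted at 1826 and 7167 normalized reads in WT 1 and WT 2, and at 3295 and 7422 in Opa1 KO 1 and Opa1 KO 2. Both libraries numbered 2 were high and both numbered 1 were low, and the genotypes overlapped. The log2 difference between genotypes was 0.45 ± 0.84 (SE), with a 95% interval from -1.92 to 2.83 in limma, which leaves room for a several-fold change either way. That fit holds genotype only, so the difference by replicate number is part of the width of this interval. WT 2 held 3.92 times the value of WT 1, and Opa1 KO 2 held 2.25 times that of Opa1 KO 1. For 6.56% of the genes tested, number 2 and number 1 differed in a shared direction by more than the smaller of these differences. The genotype difference was 0.85 between the libraries numbered 1 and 0.05 between those numbered 2. Without WT 1 the difference between groups was -0.54, and without WT 2 it was 1.44. Without Opa1 KO 1 it was 1.04 and without Opa1 KO 2 it was -0.13, so its sign turned with 1 library of either genotype.

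Slc2a1 encodes the main glucose transporter of brain endothelium and is also present in ependymal cells and astrocytes. Ependymal markers (Foxj1, Ccdc153, Tmem212, Rarres2, Dynlrb2, Pifo, Ak7 and Cfap126) summed to 5872 in WT 1, 37035 in WT 2, 8930 in Opa1 KO 1 and 34279 in Opa1 KO 2. All 8 were higher in the library numbered 2 within both genotypes, and the order of the 4 libraries in Slc2a1 put the same pair on top. Endothelial markers, 9 of 9 higher in number 2, summed to 1914, 2982, 2410 and 6656 in the same order. Microglial markers went the other way, at 2539, 774, 2810 and 1373, with 9 of 9 lower in number 2. Their part in the Slc2a1 values was not tested.

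**Figure D2:**
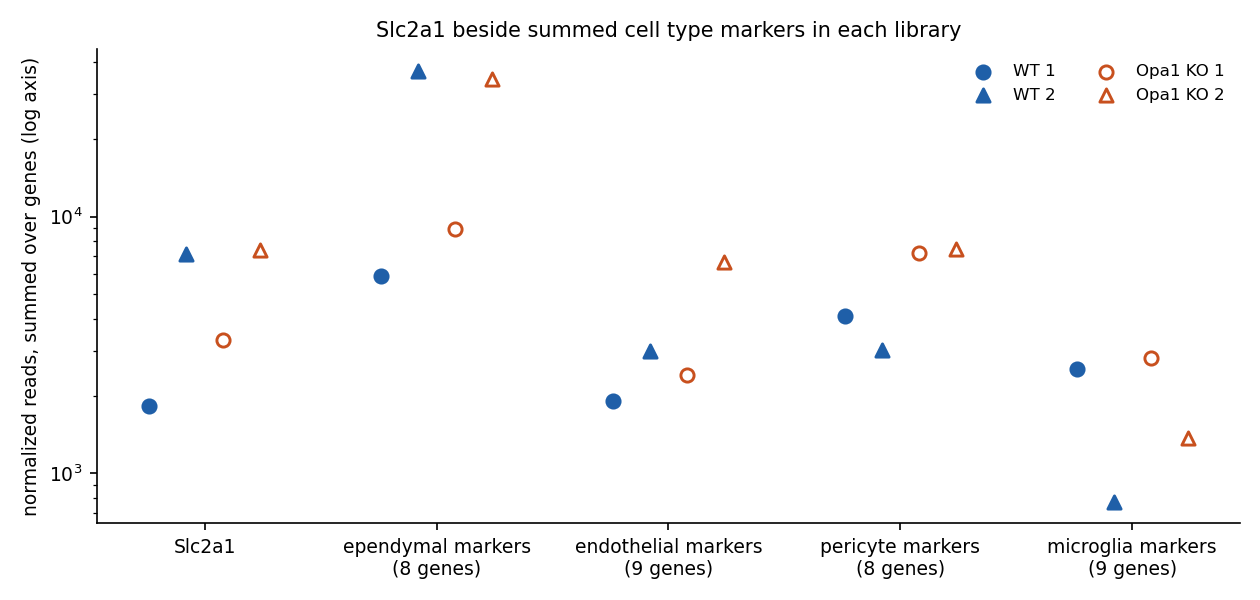
Normalized reads (log axis) of Slc2a1 and of 4 summed marker lists in each library; filled symbols are WT, open symbols Opa1 KO, circles replicate 1 and triangles replicate 2. Slc2a1, the ependymal sum and the endothelial sum are higher in number 2 than in number 1 within each genotype, whereas the microglial sum is lower.

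Slc2a3, which encodes the neuronal transporter GLUT3, did not share that pattern. Its WT mean was 548 ± 24.9 and its Opa1 KO mean 515 ± 45.9 (SD, n = 2), a log2 difference of -0.09 with a 95% interval from -0.50 to 0.32. Per kilobase of principal transcript, Slc2a1 stood above Slc2a3 in every library, by 4.18 times in WT 1 and by 15.4 times in WT 2, and by 7.31 and 18.7 times in the Opa1 KO libraries. By total exon length it was 7.11 and 26.2 times in WT and 12.4 and 31.8 times in Opa1 KO. The ratio overlapped between genotypes.

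Hexokinase 2, the inducible form of the first enzyme, was the member with the largest log2 difference between genotypes. Hk2 (ENSMUSG00000000628, chr6:82725025-82774454, minus strand) was counted at 74.6 and 65.1 in WT and at 106 and 110 in Opa1 KO. Both Opa1 KO libraries were above both WT libraries, and the 2 libraries of each genotype lay close together. The means were 69.9 ± 6.66 and 108 ± 3.20 (SD, n = 2), and the log2 difference was 0.62 ± 0.24 (SE), with a 95% interval from -0.03 to 1.27 in limma. Its unadjusted p was 0.056 and its adjusted p 0.998 in that test, and 8.70% of all genes tested had a larger absolute difference. DESeq2 gave a wider error, at 0.63 ± 0.41 (SE) with an unadjusted p of 0.12. The difference was 0.50 between the libraries numbered 1 and 0.75 between those numbered 2. Over 15 other ways of processing it ranged from 0.53 to 0.72, and the lowest adjusted p among them was 0.24.

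Opa1 KO libraries lay above both WT libraries for 2 of the 11 loci, namely Hk2 and, by a margin of less than 1 normalized read, the second Aldoa locus. Over all genes tested this held for 15.2%. For none of the 11 loci did both Opa1 KO libraries lie below both WT libraries, against 15.7% of all genes. The higher count is thus near the background share.

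Hk2 was a minor hexokinase transcript in these cells. Per kilobase of principal transcript it reached 0.0300 and 0.0203 of Hk1, the constitutive form, in WT and 0.0378 and 0.0321 in Opa1 KO. By total exon length these shares were 0.0631 and 0.0428 in WT and 0.0795 and 0.0675 in Opa1 KO. Hk1 itself had a WT mean of 1933 ± 347 and an Opa1 KO mean of 2116 ± 307 (SD, n = 2), a log2 difference of 0.13 with a 95% interval from -0.38 to 0.65. The log2 ratio of Hk2 to Hk1 was higher in both Opa1 KO libraries than in either WT library, by 0.49 on average. The exact permutation test of this ratio gave p = 0.333, the smallest value that 2 against 2 libraries allow, and 0.583 after adjustment over 7 ratios.

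Phosphofructokinase, the rate-limiting step, differed between genotypes by less than between libraries of 1 genotype. Pfkl, the liver-type subunit (ENSMUSG00000020277, chr10:77986947-78010083, minus strand), was counted at 1667 and 2266 in WT and at 1613 and 2169 in Opa1 KO. Pfkp, the platelet-type subunit (ENSMUSG00000021196, chr13:6579768-6648777, minus strand), was counted at 2195 and 3192 in WT and at 2032 and 2802 in Opa1 KO. In both genes the libraries numbered 2 were the high ones, and the genotypes overlapped. The log2 differences were -0.05 ± 0.23 (SE) for Pfkl and -0.15 ± 0.26 for Pfkp, with 95% intervals from -0.68 to 0.57 and from -0.86 to 0.56. The annotated span of Pfkp overlaps that of Pitrm1, a mitochondrial protease gene on the opposite strand. Pitrm1 was counted at 1829 to 2123 normalized reads over the whole gene, and how far the exons overlap was not measured. The library strand is not given, so reads in that overlap cannot be assigned with certainty.

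The muscle-type subunit Pfkm, no member of the chosen set, had means of 1900 ± 363 and 2248 ± 105 (SD, n = 2) and a log2 difference of 0.26. The ratio of Pfkp to Pfkm was lower in both Opa1 KO libraries than in either WT library, by -0.40 on the log2 scale, and the ratio of Pfkl to Pfkp was higher in both, by 0.09. Neither could pass the exact permutation test, in which both had p = 0.333. Among the enzymes that set the level of fructose-2,6-bisphosphate, the strongest activator of phosphofructokinase, none of 5 was called. Pfkfb3 was counted at 942 and 746 in WT and at 864 and 1017 in Opa1 KO, and Pfkfb2 at 652 and 672 against 748 and 765. Tigar, which opposes them, had means of 293 and 272, and Pfkfb1 means of 64.1 and 50.6.

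Aldolase splits the 6-carbon sugar. Aldoa (ENSMUSG00000030695, chr7:126795234-126800751, minus strand) was counted at 5560 and 7221 in WT and at 6329 and 8396 in Opa1 KO. The Opa1 KO value was the higher one within each replicate number, by 0.19 and 0.22 on the log2 scale, but Opa1 KO 1 lay between the WT libraries. The log2 difference was 0.20 ± 0.22 (SE), with a 95% interval from -0.38 to 0.79, and without Opa1 KO 2 it was -0.0017. The second locus of that name (ENSMUSG00000114515, chr7:126800790-126809108), which lies just upstream on the same strand, was counted at 72.6 and 73.9 in WT and at 74.0 and 90.9 in Opa1 KO. Its log2 difference was 0.16, with a 95% interval from -0.53 to 0.85. Both loci overlap Fam57b on the opposite strand, which was counted at 140 to 225 normalized reads.

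Aldoc, the aldolase of astrocytes and the brain's main form in glia, had groups that differed by more than their replicate spread. It was counted at 18408 and 17610 in WT and at 25423 and 25267 in Opa1 KO. The 2 groups did not overlap, and the means were 18009 ± 564 and 25345 ± 110 (SD, n = 2), 1.41 times higher in Opa1 KO. The log2 difference was 0.49 ± 0.13 (SE), with an adjusted p of 0.998 in limma and 0.00663 in DESeq2. DESeq2 and the fit with a replicate block called it, and the other 13 alternatives did not, and 0.00663 was the lowest adjusted p. Per kilobase of principal transcript, Aldoa reached 0.456 and 0.619 of Aldoc in WT and 0.376 and 0.502 in Opa1 KO. By total exon length it reached 0.339 and 0.460 in WT and 0.279 and 0.372 in Opa1 KO. The log2 ratio of Aldoa to Aldoc differed by -0.29 between genotypes, with overlapping libraries. Aldoc is also a marker of astrocytes, and the study uses it as a marker of glia-like neural stem cells. The marker sum of stem cells and astrocytes was higher in both Opa1 KO libraries, as given above.

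**Figure D3:**
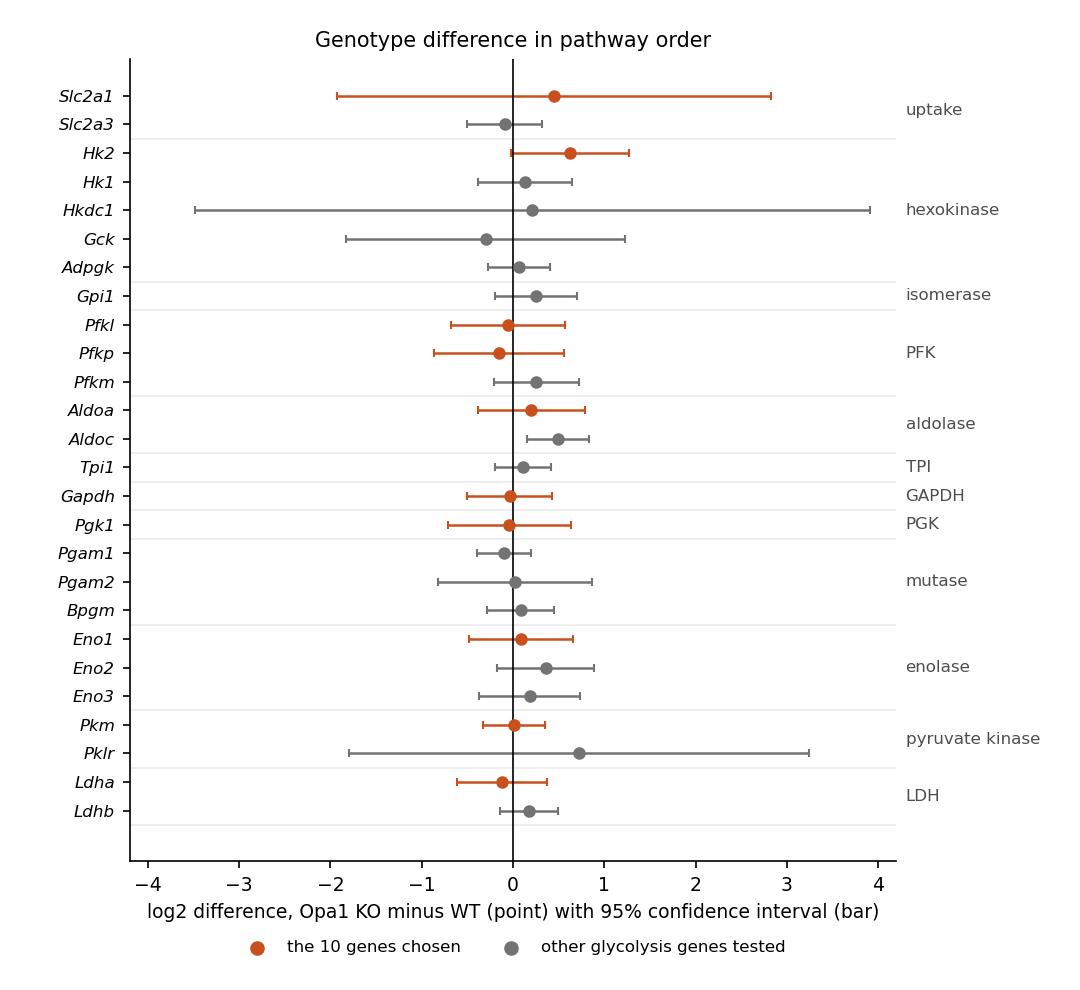
Log2 difference between Opa1 KO and WT (points, mean of 2 libraries each) with 95% confidence intervals from limma for 10 chosen genes (orange) and 16 other glycolysis genes (gray), ordered from glucose uptake to lactate. The interval of Aldoc, from 0.16 to 0.83, lies above 0, that of Hk2 from -0.03 to 1.27 just reaches it, and the other members' intervals include 0 on both sides.

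The enzymes downstream of aldolase had log2 differences near 0 between genotypes. Gapdh, which oxidizes glyceraldehyde-3-phosphate and produces NADH (ENSMUSG00000057666, chr6:125161715-125166467, minus strand), was counted at 8871 and 7459 in WT and at 8800 and 7168 in Opa1 KO. It was the one member that was lower in both libraries numbered 2. The log2 difference between genotypes was -0.03 ± 0.17 (SE), with a 95% interval from -0.50 to 0.43. Gapdh has 93 near-identical gene copies in the annotation (at least 95% identity over at least 200 bases), of which 85 held reads. Their summed level came to 15.5% to 18.4% of that of Gapdh, so its own value is uncertain, to an extent that was not tested.

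Phosphoglycerate kinase, which makes the first ATP, showed no genotype difference beyond the spread of its libraries. Pgk1 (ENSMUSG00000062070, chrX:106187100-106203699, plus strand) was counted at 3101 and 4616 in WT and at 3271 and 4144 in Opa1 KO. The WT libraries enclosed both Opa1 KO libraries, and the log2 difference was -0.04 ± 0.25 (SE), with a 95% interval from -0.71 to 0.63. Its 4 near-identical copies summed to at most 0.611% of its value.

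Enolase forms phosphoenolpyruvate. Eno1 (ENSMUSG00000063524, chr4:150236721-150248879, plus strand) was counted at 7849 and 9926 in WT and at 8130 and 10816 in Opa1 KO. The libraries numbered 2 were the high ones, and the log2 difference was 0.09 ± 0.21 (SE), with a 95% interval from -0.48 to 0.66. Near-identical copies, mainly Eno1b, summed to 1.70% to 2.12% of the Eno1 value. The neuronal form Eno2 was low, at 175 and 159 in WT and at 207 and 223 in Opa1 KO. Both Opa1 KO libraries were above both WT libraries, as in 15.2% of all genes. Its log2 difference was 0.36, with a 95% interval from -0.17 to 0.89. Per kilobase of principal transcript, Eno1 exceeded Eno2 by 54.2 to 85.8 times, and by total exon length by 34.4 to 54.4 times. The ratio of Eno1 to Eno2 overlapped between genotypes.

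Pyruvate kinase M, which makes the second ATP, was the steadiest member. Pkm (ENSMUSG00000032294, chr9:59656368-59679375, plus strand) was counted at 11660 and 12659 in WT and at 11995 and 12505 in Opa1 KO. The WT libraries enclosed both Opa1 KO libraries. The log2 difference was 0.01 ± 0.13 (SE), and its 95% interval from -0.33 to 0.35 was the narrowest among the 11 loci. The values are per gene, so the M1 and M2 splice forms, which differ in how they are regulated, cannot be told apart. Gm49759, a provisional transcript model, overlaps Pkm on the same strand and was counted at 454 to 561 normalized reads.

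Lactate dehydrogenase A closes the pathway. Ldha (ENSMUSG00000063229, chr7:46841475-46855627, plus strand) was counted at 3634 and 2690 in WT and at 2818 and 2938 in Opa1 KO. WT 1 was the high library, and the other 3 lay close together. The log2 difference was -0.12 ± 0.18 (SE), with a 95% interval from -0.61 to 0.37. Without WT 1 it was 0.10. Ldhb, the form that favors lactate oxidation, was counted at 9719 and 9337 in WT and at 10853 and 10662 in Opa1 KO, and its groups did not overlap. Its log2 difference was 0.18, with a 95% interval from -0.14 to 0.49. The log2 ratio of Ldha to Ldhb was -1.42 and -1.79 in WT and -1.95 and -1.86 in Opa1 KO, lower in both Opa1 KO libraries by 0.30 on average (exact permutation p = 0.333, adjusted 0.583). Per kilobase of principal transcript, Ldha stood at 0.202 to 0.291 of Ldhb, and by total exon length at 0.123 to 0.177. The B form thus prevailed in every library.

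**Figure D4:**
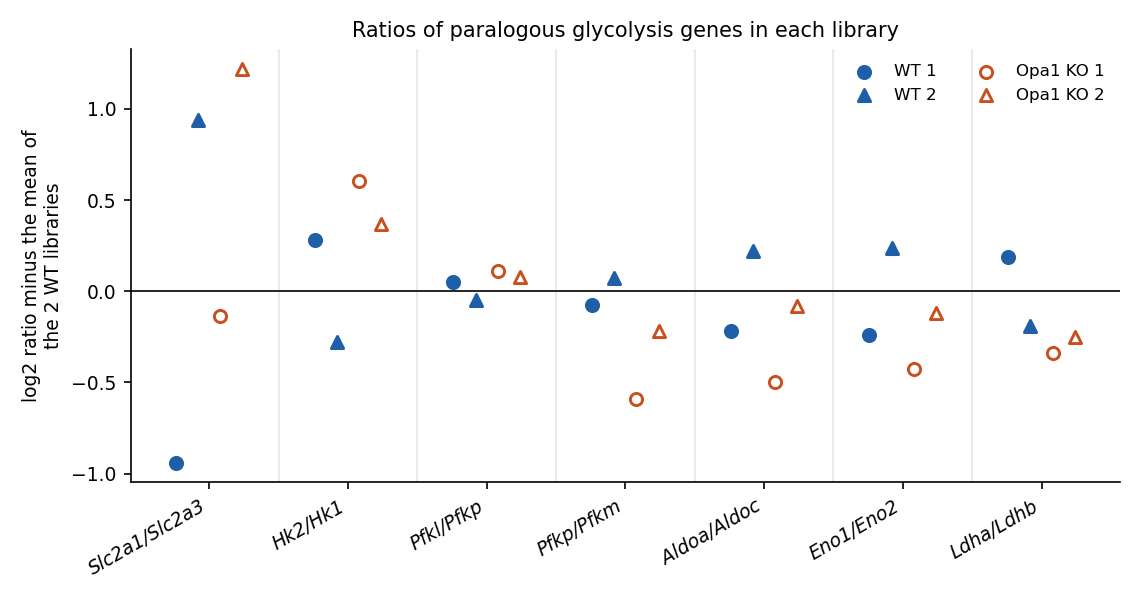
Log2 ratio of 7 pairs of paralogous genes in each library, set to 0 at the mean of the 2 WT libraries; filled symbols are WT, open symbols Opa1 KO, circles replicate 1 and triangles replicate 2. Hk2/Hk1 and Pfkl/Pfkp lie higher and Pfkp/Pfkm and Ldha/Ldhb lower in both Opa1 KO libraries, whereas the other 3 ratios overlap between genotypes.

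Levels between genes can be compared only per length. Divided by the length of the principal transcript in kilobases, the WT means ran from Gapdh (6066), Pkm (5000), Eno1 (4385) and Aldoa (4302) through Pgk1 (2114), Ldha (1886) and Slc2a1 (1379) to Pfkp (650), Pfkl (527), the second Aldoa locus (98.9) and Hk2 (12.7). Hk2 was lowest, the second Aldoa locus next and the Pfk subunits below the remaining members also when the total exon length was used. The order among the upper 7 and that of Pfkp and Pfkl depended on the length chosen and is not read here. Neighbors such as Eno1 and Aldoa, or Pgk1 and Ldha, overlapped across libraries. The 11 loci summed to 46510 and 57335 in WT and to 48463 and 58562 in Opa1 KO, or 0.207% to 0.274% of all normalized reads. Without Slc2a1 the sums were 44683 and 50167 against 45167 and 51140. In both versions the libraries numbered 2 were the high ones and the genotypes overlapped.

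Replicate number separated the members more than genotype did. The mean difference between libraries numbered 2 and 1 exceeded the genotype difference for 9 of the 11 loci (81.8%), against 61.6% of all genes tested. Within WT, the difference between number 2 and number 1 was 0.44 for Pfkl, 0.54 for Pfkp, 0.38 for Aldoa, 0.57 for Pgk1 and 0.34 for Eno1 on the log2 scale. Within Opa1 KO, the same genes differed by 0.43, 0.46, 0.41, 0.34 and 0.41. These 5 genes were thus higher in number 2 in both genotypes, whereas Gapdh was lower by 0.25 and 0.30 and Pkm moved by 0.12 and 0.06. Ldha and Hk2 went opposite ways in the 2 genotypes. The labels do not say what the number stands for. Beside the ependymal and microglial markers given above, all 10 cell cycle markers were lower in number 2, at 76011 and 47420 in WT and 60299 and 33163 in Opa1 KO, and their part in these differences was not tested.

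**Figure D5:**
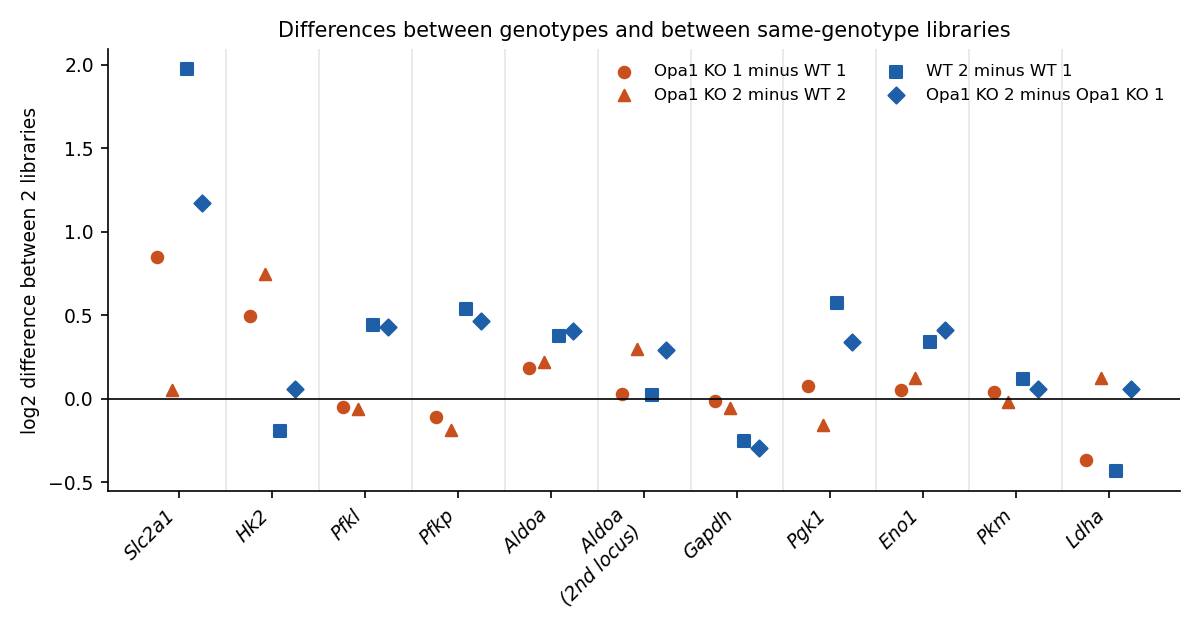
Log2 differences of the 11 loci between genotypes at the same replicate number (orange) and between replicate numbers within a genotype (blue). For Slc2a1 the blue symbols stand at 1.97 and 1.17, and for Pfkl, Pfkp, Aldoa, Pgk1 and Eno1 both blue symbols lie above both orange ones, whereas Hk2 shows the reverse.

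Members of other lists followed replicate number in the same way as Slc2a1. These genes were picked after their values were seen. Hkdc1, a further hexokinase, was counted at 59.1 and 436 in WT 1 and WT 2 and at 89.2 and 390 in Opa1 KO 1 and Opa1 KO 2. The lactate transporter gene Slc16a1 was counted at 1363, 3428, 1606 and 3694 in the same order, and Car9, a hypoxia-responsive carbonic anhydrase, at 137, 1086, 238 and 1080. Pdk1, which restrains pyruvate dehydrogenase, was counted at 602, 1562, 885 and 1643. In all 4 genes both libraries numbered 2 exceeded both numbered 1, as in Slc2a1. Number 2 was above number 1 within both genotypes for 8 of the 11 loci and for 6318 of the 18547 genes tested.

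Of 19 other glycolysis genes, 16 passed the filter. By sign 13 were higher and 3 lower in Opa1 KO, with a median log2 difference of 0.15 against 0.01 for the chosen loci. The former was 0.089 without WT 1 and 0.25 without WT 2, and the latter -0.048 and 0.17. Limma called none, and DESeq2 called Aldoc. In 7 of the 16, both Opa1 KO libraries were above both WT libraries, against 15.2% of all genes. Gpi1, the isomerase between hexokinase and phosphofructokinase, had means of 2708 ± 407 and 3210 ± 343 (SD, n = 2) and a log2 difference of 0.25, with overlapping libraries. The summed level of the 19 genes was 42076 and 42866 in WT and 51669 and 52824 in Opa1 KO. Aldoc and Ldhb made up most of that sum.

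Genes at the exits of the pathway showed no call by limma or DESeq2. Among 16 genes of pyruvate and lactate handling the median log2 difference was 0.05. It was 0.018 without WT 2, 0.078 without Opa1 KO 1, 0.0090 without Opa1 KO 2 and 0.10 with library size alone. Pcx, pyruvate carboxylase, which feeds the citric acid cycle and is typical of astrocytes, was counted at 2141 and 2135 in WT and at 2787 and 2606 in Opa1 KO, a log2 difference of 0.33 ± 0.11 (SE) with an unadjusted p of 0.038 in limma. Pdk4, a kinase that restrains pyruvate dehydrogenase, was counted at 1180 and 1354 against 1471 and 1560. Pdp1, the opposing phosphatase, was counted at 2888 and 2586 against 2543 and 2106. Groups did not overlap in these 3 genes, which were 2 of the 16 higher and 1 lower, against 15.2% and 15.7% of all genes, so the counts are not above the background. Pdk2 overlapped at 1650 and 2136 against 2073 and 2381.

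The pentose phosphate pathway, which branches off at glucose-6-phosphate and supplies NADPH, had a median log2 difference of -0.03 over 8 genes, with 0.052 without WT 1, -0.087 without WT 2, -0.11 without Opa1 KO 1 and 0.057 without Opa1 KO 2. G6pdx, its entry enzyme, had means of 2022 ± 302 and 1821 ± 292, and Pgd 1326 ± 29.2 and 1191 ± 183, with overlapping libraries in both (SD, n = 2). Tkt, transketolase, overlapped too, at 4626 and 4499 against 4506 and 4169. H6pd, the endoplasmic reticulum form, was low, at 50.4 and 72.9 in WT and 90.3 and 84.2 in Opa1 KO.

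The shuttles that carry the NADH of glycolysis into mitochondria had a median log2 difference of -0.10, with 8 of 10 genes lower by sign and 4 of them without overlap, against 15.7% of all genes. This median was -0.19 without WT 2 or without Opa1 KO 1 and -0.062 without Opa1 KO 2. Gpd1, the cytosolic glycerol-3-phosphate dehydrogenase, was counted at 668 and 594 in WT and at 468 and 401 in Opa1 KO, a log2 difference of -0.54 ± 0.17 (SE) with an unadjusted p of 0.028 in limma and an adjusted p of 0.998. Its mitochondrial partner Gpd2 went the other way, at 1448 and 1396 against 1658 and 1642. Slc25a13, the aspartate-glutamate carrier citrin, was counted at 514 and 445 against 394 and 339, and Mdh2 at 5031 and 4832 against 4673 and 4142. None of the 10 passed the limma or the DESeq2 threshold.

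The HIF list held 21 genes of the pathway and its targets outside glycolysis, with a median log2 difference of 0.09, which was -0.015 without WT 1, 0.050 without WT 2, 0.15 without Opa1 KO 1 and -0.023 without Opa1 KO 2. Hif1a, the oxygen-regulated subunit, which was added after its values were seen, was counted at 3968 and 2947 in WT and at 3645 and 2910 in Opa1 KO, and Epas1, its paralog and a gene of vessels and astrocytes, at 687 and 845 against 866 and 1428. Vegfa, the angiogenic growth factor, was counted at 1969 and 1733 in WT and at 4378 and 4081 in Opa1 KO, 2.29 times higher. Its log2 difference was 1.19 ± 0.13 (SE), with an adjusted p of 0.998 in limma and 1.57e-10 in DESeq2, and DESeq2 and the fit with a replicate block were the 2 of 15 alternatives that called it. It was the one gene of the list that DESeq2 called. Of the 21 genes, 3 were higher and 4 lower without overlap, near the 15.2% and 15.7% of all genes. Ndrg1 was counted at 770 and 496 against 1034 and 1049, and Bnip3l, a mitophagy receptor gene, at 4712 and 4212 against 4016 and 3986. In Slc2a1, Pgk1, Ldha and Gapdh, which are textbook HIF targets within glycolysis, the groups overlapped. They overlapped as well in Pfkl, Pfkp, Eno1, Pkm and the first Aldoa locus. In Hk2 both Opa1 KO libraries were above both WT libraries, as in 15.2% of all genes.

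The 5 genes outside all lists with the profile nearest to the mean of the 10 members over the 4 libraries were Hcfc1r1, Zdhhc18, Arl6ip5, Aph1c and Slc30a10, at Euclidean distances from 0.021 to 0.037 on the centered log2 scale. The members' mean profile was -0.22 and 0.13 in WT 1 and WT 2 and -0.11 and 0.20 in Opa1 KO 1 and Opa1 KO 2. Hcfc1r1 was counted at 638 and 812 in WT and at 699 and 873 in Opa1 KO. The likeness describes 4 libraries only.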

How the data were processed

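YFP+ cells were sorted from adult brain and bulk RNA was sequenced in 4 libraries (WT, n = 2; Opa1 KO, n = 2), grouped by the genotype label. Per the labels, the authors used HISAT2, SAMtools, featureCounts and DESeq2 on build mm10; versions, annotation release and strand setting were not given in the sources used here, nor was the kit used to build the libraries. The deposited signal values are reads per gene divided by a size factor for each library. They were multiplied back by the factor, and 100% came out whole within a tolerance of 1e-06. Totals of 19985853 to 23237326 reads set the depth. The table also holds the authors' log2 fold changes and p-values, which were not used, and neither were the other deposited tables, lists derived from them.

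The 18547 genes that reached 10 in 2 or more libraries were tested on log2(value + 1) with limma-trend (limma 3.58.1, R 4.3.3, robust moderation), with Benjamini-Hochberg adjustment over all of them and a threshold of 0.05. Intervals are 95% limma intervals from the fit with genotype only, so differences by replicate number add to their width. A fold change on the log2(value + 1) scale understates that of low genes. Alternatives were edgeR 4.0.16 quasi-likelihood and DESeq2 1.42.0 on the recovered reads, limma-voom, library size or TMM scaling, pseudocounts of 0.5 and 10, no filter or a minimum of 50, a replicate block, and leaving out each library. For ratios, an exact permutation test (two-sided) was used. Symbols were matched for 55154 of 55421 identifiers. Positions and lengths come from GENCODE M21 (GRCm38), copies from blastn 2.17.0 and promoters from RefSeq (GRCm38.p6). The test was checked on simulated counts that were drawn independently for each library, with no difference by replicate number. The libraries here do differ by replicate number, so the check does not show how the test performs on them.

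Members and lists were chosen with earlier results of these data known. Named are all members, in each other list up to 4 genes with the smallest unadjusted p, the paralogs in the ratios, the 5 nearest profiles, and genes marked as picked after their values were seen. The lists for red blood cells gave 5 of 5 genes lower by sign (median -0.19), microglia 8 of 9 higher (0.54), endothelium 9 of 9 higher (0.57), ependyma 8 of 8 higher (0.24) and cell cycle 10 of 10 lower (-0.36). In that order, 1, 1, 1, 0 and 0 of these genes had groups without overlap, against 15.2% of all genes higher and 15.7% lower. The ependymal sums averaged 21453 in WT and 21604 in Opa1 KO. Their median difference was 0.62 between libraries numbered 1 and -0.07 between those numbered 2.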

Additional observations from a re-analysis of the deposited data

How the results depend on the processing

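No glycolysis member was called under any of the 15 alternatives. The counts of all genes called, 0 higher and 0 lower in limma, became 48 and 16 with DESeq2, 1 and 1 without a filter, and 123 and 59 with a replicate block (182 genes, 0.981%); the cause was not tested, and every other alternative gave 0. The labels do not say that the numbers pair libraries, and there are 2 pairs: same-numbered libraries deviated together (r = 0.72 across 18547 genes, which are not independent replicates). With the block, 2 of the 11 loci (Hk2 and Aldoa) and 3177 of 18547 genes had unadjusted p-values under 0.05 in limma, a like share, and Aldoc and Vegfa were called. Hk2 and the second Aldoa locus kept their sign in all alternatives, and the other 9 loci did not. With library size alone, Gapdh stood at 0.019 and Pgk1 at 0.014. Leaving out 1 library moved the log2 difference of Slc2a1 from -0.54 (without WT 1) to 1.44 (without WT 2), of Pfkl from -0.28 to 0.17, of Pfkp from -0.42 to 0.12, of Pgk1 from -0.33 to 0.25, of Pkm from -0.048 to 0.071, of Ldha from -0.34 (without WT 2) to 0.10 (without WT 1), and of Hk1 from -0.049 to 0.32 and Pfkfb3 from -0.0076 to 0.33, the WT libraries setting these limits. The Opa1 KO libraries set those of Aldoa, from -0.0017 to 0.41, Gapdh, from -0.18 to 0.11, Eno1, from -0.12 to 0.29, G6pdx, from -0.32 to 0.012, and Tigar, from -0.34 to 0.10. The members' median ran from -0.12 to 0.17 and that of the phosphofructokinase control list from -0.0076 to 0.044 (0.040 with library size alone). In these fits a lone library is assumed to vary like the other group. Depth was similar across libraries, and the number of libraries limits the precision.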
